A study of Mus musculus with 4 samples.

Results

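Chemokines are small secreted proteins that guide migrating cells, and they act through receptors that span the cell membrane and couple to G proteins. The ligands are named for the spacing of their first cysteines (CC, CXC, CX3C and XC) and the receptors for the ligands they bind, while atypical receptors take up chemokines without G protein signalling. In the injured heart, CC chemokines such as Ccl2 are known for recruiting monocytes, and CXC chemokines such as Cxcl1 and Cxcl2 for recruiting neutrophils. Other ligands are made at rest, for example Cxcl12 by stromal cells and Ccl21a by lymphatic endothelium. Members were taken by gene name (Ccl, Cxcl, Ccr, Cxcr, Cx3cl1, Cx3cr1, Xcl1, Xcr1 and Ackr symbols), and 61 of the 55401 genes in the table matched. Of these, 55 had a count in at least 1 library and make up the set, 35 ligands and 20 receptors, and 6 had none (Ccl1, Ccl20, Ccl27b, Ccr3, Ccr8 and Cxcl11). A filter on low counts left 47 members for testing.

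The libraries were made from poly(A) RNA of mouse hearts on day 28. In the Sham group (n = 2) the chest was opened and no vessel tied, and in the MI group (n = 2) a ligation operation had produced a myocardial infarction. Strain, sex, age, the vessel tied and the region of heart taken are not given per sample, and nothing says that the libraries came from separate animals. The p-values therefore rest on library-to-library spread, part or all of which could be technical. The series' design text speaks of infarcted tissue set against normal left ventricle, so the sampled regions may differ too.

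The promoters of 3 CXC chemokine genes are shown first because these neighbours on chromosome 5 were highest in Sham libraries and their windows hold the same letters of a kB motif, the DNA element bound by NF-kB factors. Each sequence is the 250 bases before the gene's start on the plus strand, from RefSeq on GRCm38.p6, and the capitals mark the match to the kB motif, searched as these letters with any base in the fifth place.
Cxcl1, chr5:90890995-90891244: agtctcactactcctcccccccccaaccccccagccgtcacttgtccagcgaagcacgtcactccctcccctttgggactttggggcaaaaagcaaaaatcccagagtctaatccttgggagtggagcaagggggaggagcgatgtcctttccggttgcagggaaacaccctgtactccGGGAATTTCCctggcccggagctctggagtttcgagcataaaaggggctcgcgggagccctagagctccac
Cxcl2, chr5:90903649-90903898: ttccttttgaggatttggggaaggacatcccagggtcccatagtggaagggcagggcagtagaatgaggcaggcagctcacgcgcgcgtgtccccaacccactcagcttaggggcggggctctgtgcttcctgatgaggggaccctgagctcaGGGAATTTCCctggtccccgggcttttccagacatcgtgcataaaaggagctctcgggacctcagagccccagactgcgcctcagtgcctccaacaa
Cxcl3, chr5:90785851-90786100: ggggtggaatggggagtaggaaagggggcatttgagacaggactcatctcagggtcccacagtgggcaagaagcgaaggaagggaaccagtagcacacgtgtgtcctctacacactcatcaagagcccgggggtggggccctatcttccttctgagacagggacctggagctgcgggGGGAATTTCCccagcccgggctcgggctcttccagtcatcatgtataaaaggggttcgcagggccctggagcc
The match began 71, 97 and 73 bases before the start of Cxcl1, Cxcl2 and Cxcl3. Both strands of the window from 250 bases before to 50 after the start were searched. Of 41 members with such a window, these 3 held the match, whereas 0.391% of the 20969 genes with a window did. The other members had no usable window and were not searched, among them Ccl2, Ccl7, Ccl11 and Cxcl5. Of the 5 members with a window that were lower in MI at an unadjusted p (edgeR, below), 2 held the match, Cxcl1 and Cxcl2. The windows of Ccl12, Cxcl13 and Ccl21b, also lower, did not hold it. For 2 of the 41, Ccl21b and Ccr9, the RefSeq start lies 82573 and 88772 bases from the start in the deposited table. A looser kB consensus, which includes the letters above, was found in 6 of the 41 members (the same 3 and Ccl9, Cxcl10 and Ackr2) and in 5.85% of all windows. The AP-1 element TGANTCA was found in 5 of the 41 members and 7.47% of all windows, and the GAS element TTCNNNGAA in 3 members and 8.10% of all. Neither AP-1 nor GAS was found in the windows of Cxcl1, Cxcl2 and Cxcl3, and a match describes letters, not binding. The 3 genes are related, so their shared letters are not independent observations.

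Total estimated counts ran from 66624106 to 75979320 per library, at an apparent 4 counts per fragment, so that 12 counts (about 3 fragments) were taken as the floor of detection. Heart muscle was present in every library, with all 6 cardiomyocyte markers detected and a summed level of 8184 to 9157 FPKM (fragments per kilobase of transcript, scaled to library size). The libraries also differed in other tissues. Sham replicate 1 had the highest neutrophil markers (summed 62.1 FPKM against 9.26 to 20.9 elsewhere). Sham replicate 2 carried B cell markers (32.5 against 1.49 to 5.89), fat cell markers (142 against 0.01 to 0.43) and atrial markers (1497 FPKM without Nppa, against 1.74 to 2.83 elsewhere). Nppa, which stressed ventricle also makes, was at 151 and 3515 FPKM in Sham and 2632 and 1855 in MI. MI replicate 1 carried lung epithelial markers (290 against 0.31 to 1.27). In bulk tissue, fewer cells of a type and less RNA per cell cannot be told apart.

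The MI libraries held less transcript than the Sham libraries for Ccl2, Ccl7, Cxcl1, Cxcl2 and Cxcl5, which attract monocytes and neutrophils, and more for Cx3cl1, Ccl21a, Cxcr4 and Ackr4. These statements rest on unadjusted p-values: in edgeR's quasi-likelihood test 0 of 18475 genes, and so 0 of the 47 members, passed an adjusted p under 0.05 (0% called; smallest adjusted p over all genes 0.185). At an unadjusted p under 0.05, 9 members were lower in MI, where 4.51% of all genes tested were, and 5 were higher, against 7.12% of all genes. The members' shares were 19.1% lower and 10.6% higher. DESeq2 called 11 members at an adjusted p under 0.05, 7 lower and 4 higher, where 1.49% and 2.58% of the genes it could adjust were called. All 9 lower members were ligands, and of the 5 higher members 2 were ligands and 3 receptors. Without Sham replicate 2, 16 members were lower (32% of those tested, against 5.86% of all genes) and 8 higher (16%, against 9.72%). Without Sham replicate 1, 8 were lower (16.3%, against 6.1%) and 11 higher (22.4%, against 9.67%). Without MI replicate 2, 4 were lower (8%, against 2.06%). On scaled counts (CPM) the groups did not overlap for 23 members: MI was the lower group for 13 (27.7%, against 21.9% of all genes) and the higher for 10 (21.3%, against 24.9%). The median log2 difference of the 47 members was -0.25, beside 0.00 over all genes tested. For ligands it was -1.12 and for receptors 0.34.

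**Figure D1:**
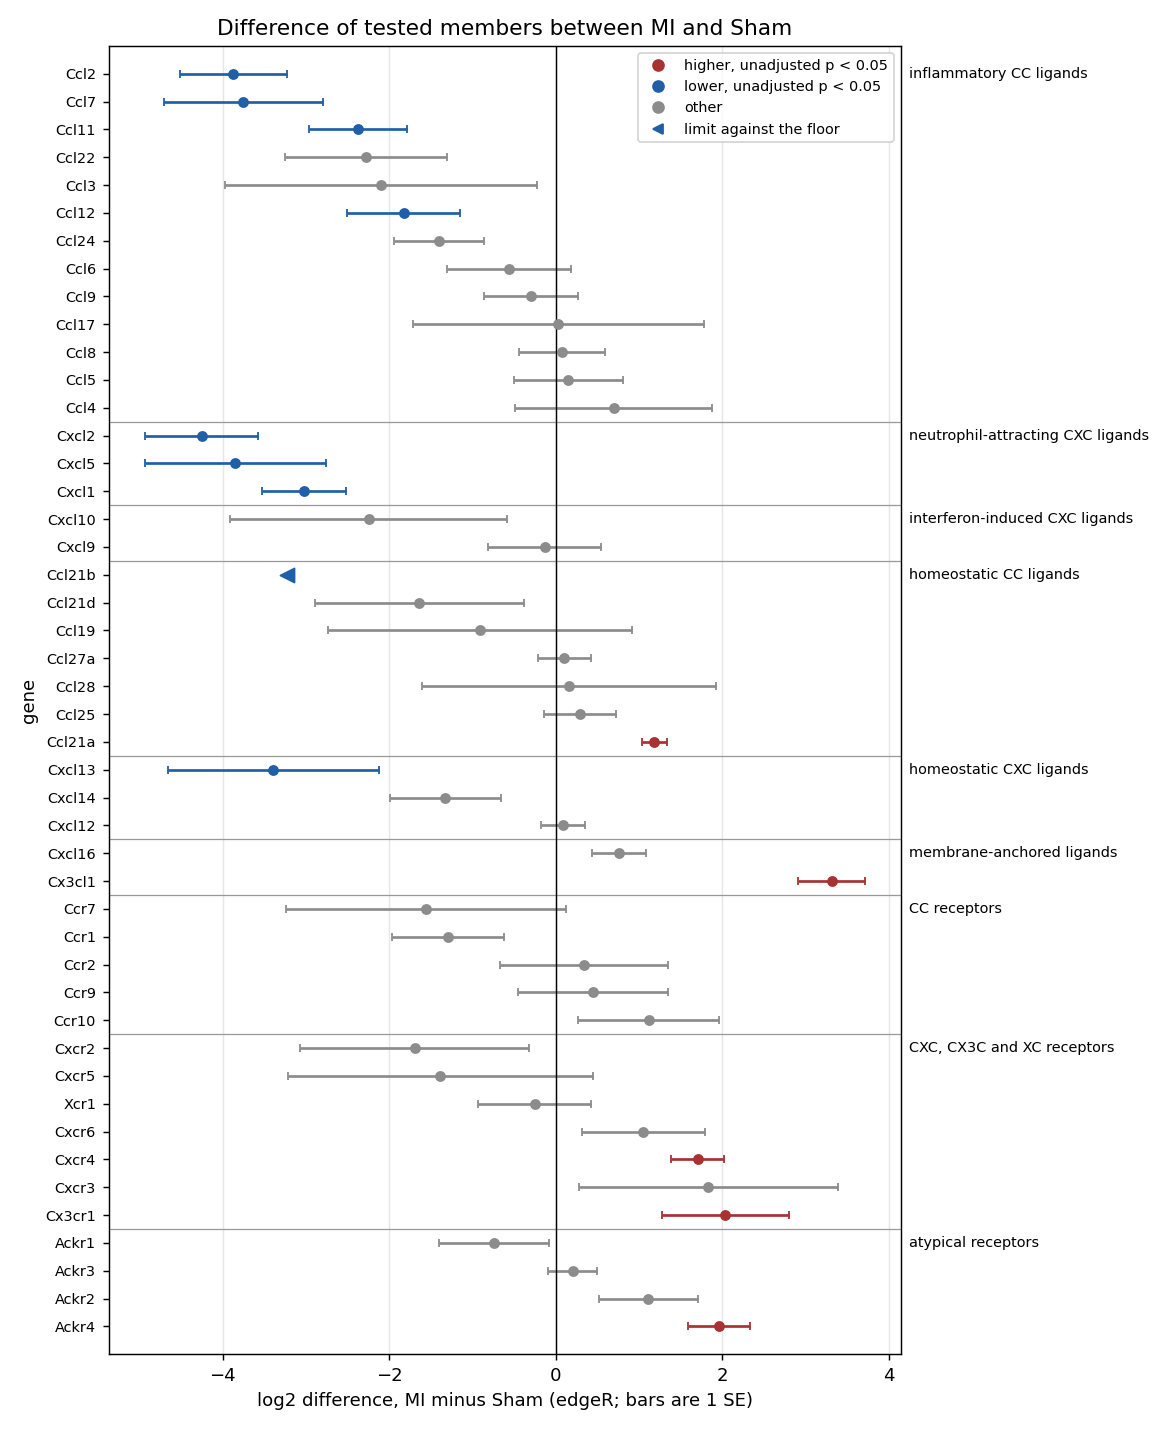
Log2 difference between MI and Sham (x axis; positive is higher in MI) for the tested members reported here (y axis), grouped by role, with 1 standard error from edgeR. Coloured points have an unadjusted p under 0.05; the arrow for Ccl21b is the limit against the floor, since both MI libraries were at 0. Cxcl2, Ccl2, Cxcl5, Ccl7, Cxcl13 and Cxcl1 have fitted differences at or below -3.03, and Cx3cl1 lies farthest to the right at 3.31.

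Among the CC ligands of inflammation, 4 of 13 tested genes were lower at an unadjusted p (30.8%, against 4.51% of all genes). None was higher (7.12% of all genes were), and the median log2 difference was -1.40. The 4 (Ccl2, Ccl7, Ccl11 and Ccl12) lie side by side on chromosome 11 with Ccl8, between 82035571 and 82116799. Ccl2, the main ligand of the monocyte receptor Ccr2, was at 13.4 and 4.58 FPKM in the Sham libraries and at 0.72 in each MI library. The log2 difference of Ccl2 was -3.87 ± 0.64 (SE; unadjusted p = 0.00201, adjusted p = 0.240 in edgeR). The MI libraries were alike and far under both Sham libraries, and without Sham replicate 1 the difference was -2.79. Ccl7, a second Ccr2 ligand, was at 11.9 and 2.10 FPKM in Sham and at 0.75 and 0.50 in MI (-3.75 ± 0.96, unadjusted p = 0.0118; -1.88 without Sham replicate 1). Its p rose above 0.05 without either MI library. Ccl12, the mouse relative of Ccl2, was at 4.17 and 1.46 FPKM in Sham and 1.06 and 0.83 in MI. The groups did not overlap (-1.83 ± 0.67, unadjusted p = 0.0436), but without Sham replicate 1 the difference was -0.77 with an unadjusted p of 0.252 in edgeR, and p was also above 0.05 without either MI library. DESeq2 called Ccl2 and Ccl7 and not Ccl12.

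Ccl11, the eosinophil chemokine eotaxin, was highest in the other Sham library, with 1.36 and 3.79 FPKM in Sham and 0.71 and 0.42 in MI. For Ccl11 the log2 difference was -2.37 ± 0.59 (unadjusted p = 0.0106; -1.56 without Sham replicate 2, and unadjusted p = 0.068 without MI replicate 2). Ccl8, the fifth gene of that stretch, did not follow its neighbours. It was at 0.92 and 1.82 FPKM in Sham and 1.64 and 1.66 in MI, so that MI lay inside the Sham range. Of the next stretch on the same chromosome, Ccl5, Ccl9, Ccl6, Ccl3 and Ccl4, 0 of 5 were lower or higher at an unadjusted p. Ccl6, a constitutive ligand of myeloid cells and the most abundant inflammatory member, was at 30.9 and 6.63 FPKM in Sham and 18.4 and 12.5 in MI. Its neighbour Ccl9 was at 8.02 and 2.66 FPKM in Sham and 5.89 and 4.54 in MI. For both genes the MI libraries lay between the Sham libraries, and the sign of the difference followed the Sham library kept. For Ccl6 it was 1.07 without Sham replicate 1 and -1.30 without Sham replicate 2, and for Ccl9 it was 0.82 and -0.92, each at an unadjusted p under 0.05. Ccl3, Ccl4 and Ccl5, which attract monocytes and T cells, had at most 1.25, 0.67 and 0.65 FPKM in any library. Ccl24, another eotaxin, was at 1.45 and 0.79 FPKM in Sham and 0.63 and 0.38 in MI (unadjusted p = 0.0506). Ccl22 was at 0.33 and 0.16 FPKM in Sham and 0.10 and 0.02 in MI, with counts of 19 and 4 in MI near the floor. Ccl17 had at most 16 counts in any library.

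**Figure D2:**
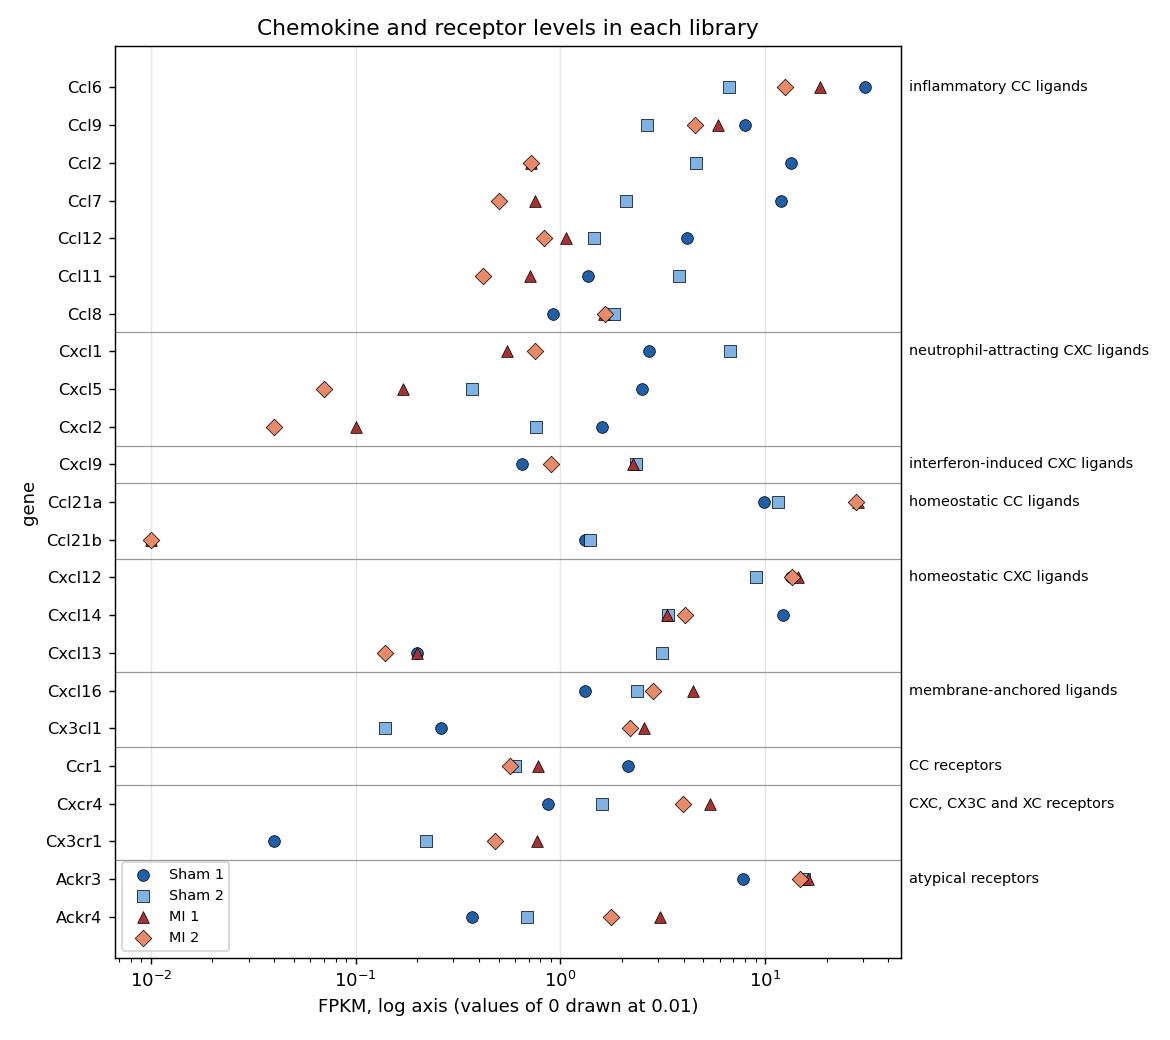
FPKM (x axis, log scale) of the 23 members with a mean of at least 1 FPKM or an unadjusted p under 0.05 (y axis), 1 symbol per library, grouped by role; values of 0 are drawn at 0.01. For Ccl2, Ccl7, Cxcl1, Cxcl2 and Cxcl5 both blue Sham symbols lie to the right of both red MI symbols, and for Cx3cl1, Ccl21a, Cxcr4 and Ackr4 to the left.

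Of the 5 CXC ligands that attract neutrophils, 3 were tested (Cxcl1, Cxcl2 and Cxcl5), and all 3 were lower in MI at an unadjusted p and called by DESeq2. Of all genes, 4.51% were lower at an unadjusted p and 1.49% of those DESeq2 could adjust were called lower. Cxcl1 (ENSMUSG00000029380, chromosome 5, 90891241 to 90893115) was at 2.70 and 6.74 FPKM in Sham and 0.55 and 0.75 in MI. The log2 difference was -3.03 ± 0.51 (unadjusted p = 0.00207, adjusted p = 0.240; -2.32 without Sham replicate 2). Cxcl2 was at 1.60 and 0.76 FPKM in Sham and 0.10 and 0.04 in MI (-4.25 ± 0.68, unadjusted p = 0.00172; -3.52 without Sham replicate 1). Its MI counts were 17 and 8, around the floor, so the size of the difference is uncertain. Cxcl5 was at 2.51 and 0.37 FPKM in Sham and 0.17 and 0.07 in MI (-3.85 ± 1.09, unadjusted p = 0.0176). Without Sham replicate 1 the Cxcl5 difference was -1.81 (unadjusted p = 0.081), and p was also above 0.05 without either MI library. Cxcl3 was under the filter, with 302 counts in Sham replicate 1 and 0 in each other library. Cxcl1 was thus highest in Sham replicate 2, and Cxcl2, Cxcl3 and Cxcl5 in Sham replicate 1. Cxcr2 itself, the receptor of neutrophils, was at 1.28 and 0.05 FPKM in Sham and 0.34 and 0.17 in MI, and MI lay between the Sham libraries.

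Neutrophil markers moved with part of this pattern. Of 8 listed markers (Cxcr2 among them) 7 were tested, 0 passed an unadjusted p and all 7 had negative differences. Their summed level was 62.1 and 11.7 FPKM in Sham and 20.9 and 9.26 in MI, so the groups overlapped, with Ly6g listed at 0 in 3 libraries. Cxcl5 and Cxcr2 were, like these markers, highest in Sham replicate 1, and Cxcl1 was not. Monocyte markers (Ccr2 among them) summed to 21.03 and 12.8 FPKM in Sham and 32.6 and 11.6 in MI, and macrophage markers to 90.3 and 105 in Sham and 190 and 112 in MI. Neither list had a member at an unadjusted p under 0.05. The part of these cells in the chemokine differences was not tested.

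**Figure D3:**
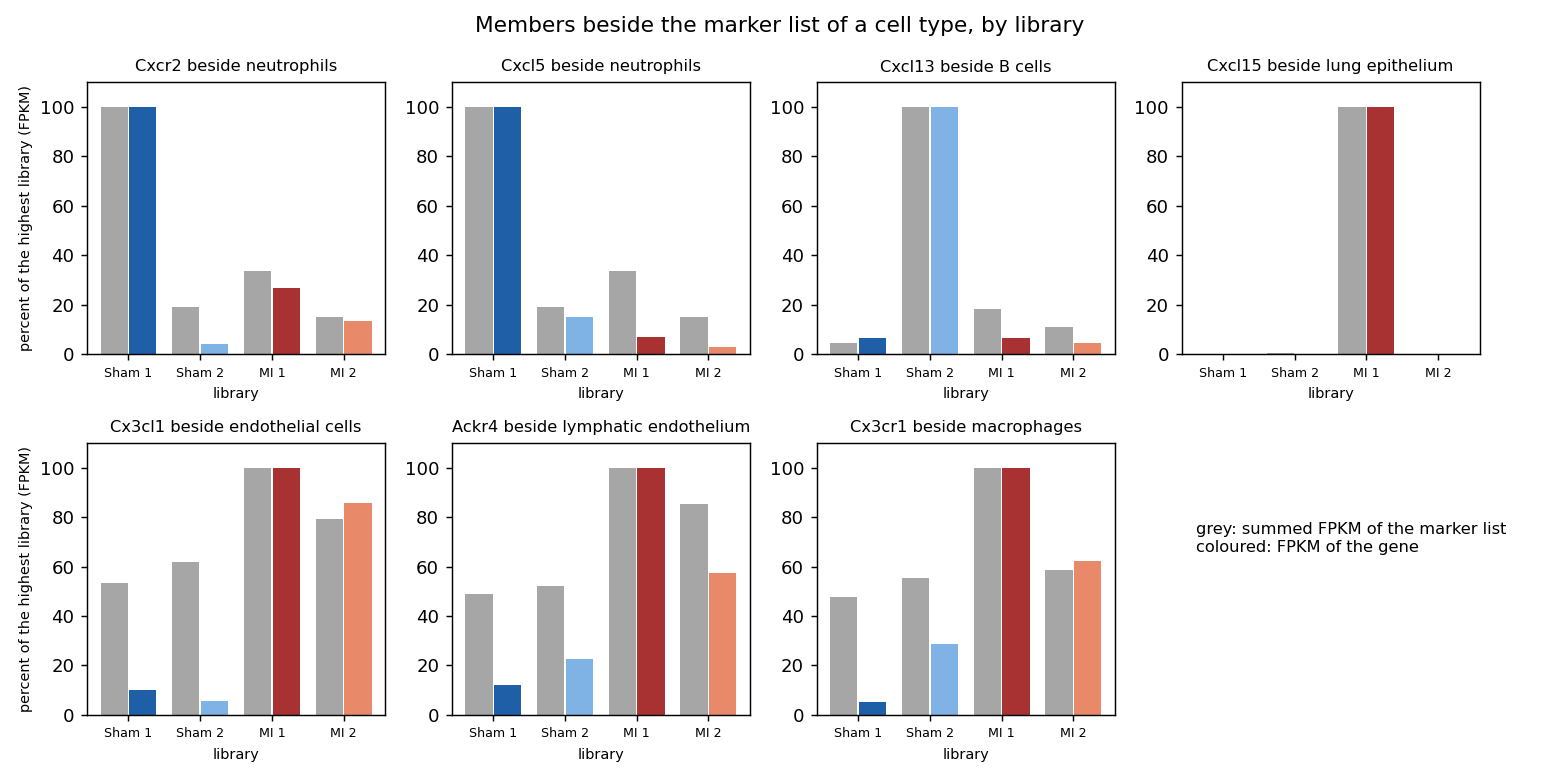
Level of 7 members (coloured bars) beside the summed level of a cell type's marker list (grey bars) in each library (x axis), each as a percent of its highest library (y axis, FPKM). Cxcr2 and Cxcl5 share their highest library with neutrophil markers, Cxcl13 with B cell markers and Cxcl15 with lung markers. The neutrophil list holds Cxcr2 and the lymphatic list Ccl21a, and the lymphatic and macrophage lists share Lyve1. In Sham, Cx3cl1 was at 5.45 to 10.1% and endothelial markers at 53.4 to 62.0%.

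Neither interferon-induced ligand of the T cell receptor Cxcr3 had an unadjusted p under 0.05. Cxcl9 was at 0.65 and 2.35 FPKM in Sham and 2.27 and 0.90 in MI, and the groups overlapped. Cxcl10 was at 0.43 and 1.13 FPKM in Sham, 0.38 in MI replicate 1 and 0 in MI replicate 2 (unadjusted p = 0.237). Cxcr3 had at most 23 counts in any library. Cxcl10 overlaps Art3 on the opposite strand, a gene at 35.7 to 48.6 FPKM, and whether the counting used strand is not given, so reads of the pair may be mixed.

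Ccl21a, the ligand of Ccr7 that lymphatic endothelium makes, was the most abundant chemokine of the MI hearts (ENSMUSG00000094686, chromosome 4, 42772860 to 42773993). It was at 9.86 and 11.5 FPKM in Sham and 28.6 and 27.9 in MI, and the replicates of each group lay close together. The log2 difference was 1.19 ± 0.15 (unadjusted p = 0.000532, adjusted p = 0.193; DESeq2 called it), and it stayed between 1.13 and 1.40 in every alternative. Ccl21b showed the reverse, with 91 and 89 counts in Sham and 0 in both MI libraries, at least 9.39-fold lower against a floor of 12 counts per MI library. Ccl21d had 13 and 41 counts in Sham and 20 and 2 in MI. These genes are near-identical copies, which is why their letters are shown. Over the 402 coding bases of Ccl21b, Ccl21d was identical and Ccl21a differed at 2 positions, T84A and C194T (Ccl21a's base, the position from the A of the start codon, Ccl21b's base). The stretches of GENCODE M21 transcripts below hold these positions in capitals.
Ccl21a, position 84: agtgatggagggggTcaggactgctgcct
Ccl21b, position 84: agtgatggagggggAcaggactgctgcct
Ccl21a, position 194: ggcaatcctgttctCaccccggaagcact
Ccl21b, position 194: ggcaatcctgttctTaccccggaagcact
The untranslated bases were not compared. Reads within the shared coding stretches cannot be told apart, so the split among the copies is uncertain. The pseudogene Ccl19-ps3 (42132559 to 42134171), which lies between Ccl21d and Ccl21b, had 26 and 44 counts in Sham and 0 in both MI libraries. Whether the Ccl21b difference belongs to the gene or to this stretch was not tested. The sum over the 3 Ccl21 copies was 12.3 and 13.2 CPM (counts scaled to library size) in Sham and 24.0 and 26.0 in MI, and the groups did not overlap. Of the 5 lymphatic markers other than Ccl21a, 2 were higher at an unadjusted p (7.12% of all genes were). The summed level of the 5 was 16.97 and 17.12 FPKM in Sham and 26.5 and 19.0 in MI. Single markers differed. Flt4, among the higher ones, was at 1.86 and 1.70 FPKM in Sham and 3.58 and 2.96 in MI (0.64 ± 0.16). Prox1, a factor of these cells, was at 1.87 and 1.69 FPKM in Sham and 1.57 and 1.82 in MI. The part of lymphatic cell number was not tested. Ccl19, the other Ccr7 ligand, had at most 34 counts, and Ccr7 had 12 and 32 counts in Sham and 19 and 0 in MI.

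Cxcl12, the stromal ligand that retains blood cell precursors, was among the most abundant members and did not pass an unadjusted p of 0.05. It was at 13.4 and 8.98 FPKM in Sham and 14.5 and 13.5 in MI, so that MI lay just above Sham in FPKM. On the scaled counts used for the test the groups overlapped, with a log2 difference of 0.09 ± 0.26 (unadjusted p = 0.748 in edgeR). It was 0.50 without Sham replicate 1 (unadjusted p = 0.0209) and -0.23 without Sham replicate 2. Cxcl14 was at 12.2 and 3.37 FPKM in Sham and 3.32 and 4.05 in MI, high only in Sham replicate 1. Cxcl13, which attracts B cells, was at 3.12 FPKM in Sham replicate 2 and at 0.14 to 0.20 in the other libraries. Its difference (-3.39 ± 1.27, unadjusted p = 0.0459) was -0.55 without Sham replicate 2 (unadjusted p = 0.622 in edgeR), and p was above 0.05 without either MI library. B cell markers had the same highest library, with a summed 32.5 FPKM there, and Cxcr5, the Cxcl13 receptor, had 49 counts there and 0 to 12 elsewhere. Of the remaining homeostatic CC ligands, Ccl27a had 0.78 to 1.35 FPKM, Ccl25 0.16 to 0.31 and Ccl28 at most 0.08. Ccl27a and Ccl25 each overlap a more abundant gene on the opposite strand (Il11ra1 and Elavl1).

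Cx3cl1, fractalkine, a membrane-anchored ligand of endothelial cells that captures cells bearing Cx3cr1, had the smallest p of the members (ENSMUSG00000031778, chromosome 8, 94772009 to 94782427). It was at 0.26 and 0.14 FPKM in Sham and 2.57 and 2.20 in MI. The log2 difference was 3.31 ± 0.40 (unadjusted p = 0.000506, adjusted p = 0.188; DESeq2 called it). Every library of MI had at least 720 counts and every Sham library at most 81, and the difference was 2.89 to 3.91 when single libraries were left out. Endothelial markers were also higher, 3 of 6 at an unadjusted p (7.12% of all genes were). Their summed level was 93.4 and 108.5 FPKM in Sham and 175 and 139 in MI. Their part in the Cx3cl1 difference was not tested. Its neighbours Ccl22 and Ccl17, between 94745590 and 94812036, did not share the direction: Ccl22 was lower in both MI libraries and Ccl17 overlapped. Cxcl16, the other membrane-anchored ligand, was at 1.32 and 2.38 FPKM in Sham and 4.43 and 2.83 in MI, without overlap (0.76 ± 0.32, unadjusted p = 0.0676). Its receptor Cxcr6 was at 0.11 and 0.08 FPKM in Sham and 0.31 and 0.15 in MI, and lies opposite the far more abundant Fyco1.

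The ligand mixture differed as well. Ccl21a took 8.00% and 16.6% of the summed ligand FPKM in Sham and 30.7% and 36.6% in MI. Ccl2 took 10.8% and 6.60% in Sham and 0.77% and 0.94% in MI. Cx3cl1 took 0.21% and 0.20% in Sham and 2.76% and 2.89% in MI. The summed ligand FPKM itself was 123 and 69.4 in Sham and 93.2 and 76.2 in MI, so the MI totals lay between the Sham totals.

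**Figure D4:**
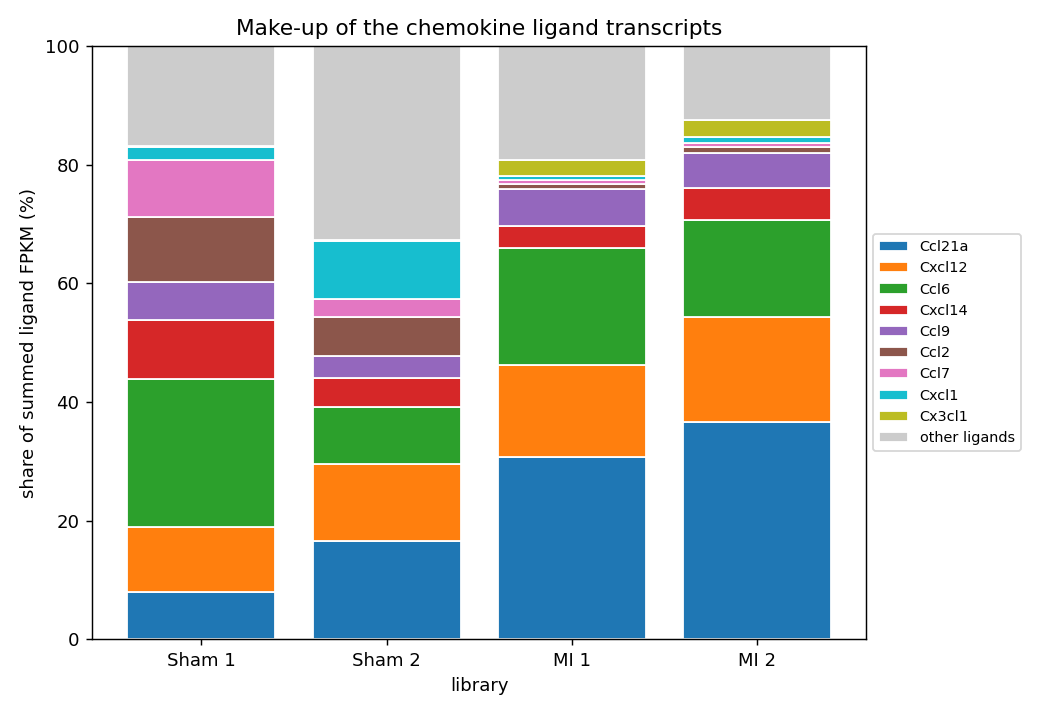
Share of the summed FPKM of the 35 ligand members (y axis, percent) in each library (x axis), for 9 ligands and the rest. Ccl21a takes 30.7 and 36.6% in the MI libraries, and Ccl2 takes 10.8 and 6.60% in Sham and under 1% in MI.

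Of the 17 receptors tested, 3 were higher at an unadjusted p (17.6%, against 7.12% of all genes) and 0 lower: Cxcr4 and Cx3cr1, 2 of the 7 CXC, CX3C and XC receptors, and Ackr4. Cxcr4, the Cxcl12 receptor carried by leukocytes, endothelial cells and progenitors, was at 0.87 and 1.60 FPKM in Sham and 5.40 and 3.99 in MI (ENSMUSG00000045382, chromosome 1, 128588199 to 128592293). The log2 difference was 1.70 ± 0.32 (unadjusted p = 0.00354, adjusted p = 0.275; DESeq2 called it), and both MI libraries were above both Sham libraries. Cx3cr1, the fractalkine receptor of resident macrophages and monocytes, was at 0.04 and 0.22 FPKM in Sham and 0.77 and 0.48 in MI. Its difference of 2.03 ± 0.76 (unadjusted p = 0.0461) was 1.33 without Sham replicate 1 and 3.48 without Sham replicate 2, and p was above 0.05 without either MI library and with library totals. The table's Cx3cr1 row spans 119901616 to 120068296 on chromosome 9 and includes same-strand genes such as Xirp1 (33.9 to 44.0 FPKM), so its counts are uncertain. Ccr2, the Ccl2 receptor, was at 0.54 and 0.06 FPKM in Sham and 0.48 and 0.44 in MI. It was low in Sham replicate 2 only, and its log2 difference was 0.34 (unadjusted p = 0.752 in edgeR). The sign followed the Sham library kept, at 2.88 without Sham replicate 1 and -0.53 without Sham replicate 2. Ccr1, a receptor for Ccl6 and Ccl9, was at 2.14 and 0.60 FPKM in Sham and 0.78 and 0.57 in MI. Of the 6 CC receptors tested, 0 had an unadjusted p under 0.05. General leukocyte markers summed to 32.2 and 30.2 FPKM in Sham and 59.2 and 32.9 in MI, with 0 of 6 at an unadjusted p under 0.05. Ccr9, Ccr10, Xcr1 and Ccr7 had at most 0.25 FPKM in any library.

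The atypical receptors, which clear chemokines, were led by Ackr3, the second receptor of Cxcl12 and the most abundant receptor of the set. Ackr3 was at 7.76 and 15.6 FPKM in Sham and 16.1 and 14.7 in MI, and the groups overlapped (0.21 ± 0.30, unadjusted p = 0.517). Ackr4, which takes up Ccl19, Ccl21 and Ccl25, was at 0.37 and 0.69 FPKM in Sham and 3.06 and 1.76 in MI. The log2 difference of Ackr4 was 1.96 ± 0.37 (unadjusted p = 0.00355, adjusted p = 0.275; DESeq2 called it), and it was above 0 with p under 0.05 in every alternative. Ackr4 overlaps Acad11 on the opposite strand, and reads of the pair may be mixed. Acad11 was at 10.6 and 10.9 FPKM in Sham and 9.96 and 9.35 in MI. The part of its reads in the Ackr4 difference was not tested. Ackr2, which clears inflammatory CC chemokines, was at 0.13 and 0.42 FPKM in Sham and 0.69 in each MI library, without overlap (unadjusted p = 0.120). Ackr1 had 0.16 to 0.30 FPKM.

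Of 26 listed pairs of a ligand and its receptor with both fitted, 18 had differences of the same sign and 8 of opposite sign. Genes recur among the pairs, and the count was not tested. The pairs given next were picked for their members named above. For Ccl2, Ccl7 and Ccl12 the log2 differences were -3.87, -3.75 and -1.83, beside 0.34 for Ccr2. For Cxcl1, Cxcl2 and Cxcl5 they were -3.03, -4.25 and -3.85, beside -1.69 for Cxcr2. For Cxcl12 the difference was 0.09, beside 1.70 for Cxcr4 and 0.21 for Ackr3. For Cx3cl1 it was 3.31, beside 2.03 for Cx3cr1, the pair in which both had an unadjusted p under 0.05. For Ccl21a it was 1.19, beside -1.56 for Ccr7 at very low counts and 1.96 for the scavenger Ackr4. None of these pairings was tested as such.

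Other genes of the pathway were taken from fixed lists. Of 21 inducers and regulators of chemokine transcription 19 were tested, 5 were lower at an unadjusted p (4.51% of all genes were) and 1 higher (7.12%). The lower genes included negative regulators as well as inducers. Zfp36, an RNA-binding protein that destabilises cytokine messages, was at 14.5 and 16.1 FPKM in Sham and 8.69 and 9.97 in MI (-0.93 ± 0.17). Nfkbia, the NF-kB inhibitor and target, was at 22.1 and 32.2 FPKM in Sham and 21.3 and 19.9 in MI (-0.61 ± 0.18). The cytokine Il6 was at 0.75 and 1.85 FPKM in Sham and 0.09 and 0 in MI, and Il1b at 1.64 and 1.10 in Sham and 0.87 and 0.52 in MI. Il1r1, the interleukin-1 receptor, had -0.96 ± 0.26, and the interferon-induced factor Irf1 was the higher gene (0.48 ± 0.16). The abundant Tnfrsf1a had -0.32 ± 0.16. DESeq2 called Zfp36, Il6 and Il1r1. Limma on FPKM gave 2 lower, where 1.82% or 1.85% of all genes were lower (pseudocount 1 or 0.1). The number lower also moved when single libraries were left out, as did the share of all genes that were lower.

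All 33 genes of chemokine receptor signalling were tested. At an unadjusted p, 2 were higher (6.06%, against 7.12% of all genes) and 1 lower (3.03%, against 4.51%). These shares were no larger than those of all genes. The higher genes were Grk5, a kinase that turns off activated receptors (3.04 and 3.10 FPKM in Sham, 5.36 and 5.75 in MI), and Arrb2, the arrestin that binds them (2.40 and 2.20 in Sham, 4.73 and 4.10 in MI). Plcb2, a phospholipase, was the lower gene (-1.02 ± 0.35). The most abundant genes, the G protein subunit Gnai2 and the GTPase Rac1, had 0.33 ± 0.13 and 0.01 ± 0.12. The number higher was 7 in limma on FPKM, where 11.8% or 12% of all genes were higher (pseudocount 1 or 0.1). With library totals it was 6, where 10.6% of all genes were higher. It also moved when single libraries were left out, so the count for this list depended on scaling and on single libraries. Of 18 proteases and proteoglycans that cut or bind chemokines, 16 were tested. At an unadjusted p, 4 were higher (25%, against 7.12% of all genes) and 1 lower (6.25%, against 4.51%). Mmp2, which can cleave Cxcl12 and Ccl7, was at 10.1 and 14.7 FPKM in Sham and 52.5 and 36.1 in MI (1.61 ± 0.21, called by DESeq2). Fibroblast markers, 4 of 6 higher at an unadjusted p, summed to 69.3 and 100.5 FPKM in Sham and 306 and 197 in MI, and their part was not tested. Adam17, which sheds Cx3cl1 from the membrane, was at 1.64 and 2.46 FPKM in Sham and 3.91 and 3.40 in MI (0.62 ± 0.19). The heparan sulfate carriers Sdc1 and Sdc3 had 1.23 ± 0.29 and 0.49 ± 0.18, and Sdc4 was lower at -1.04 ± 0.31. The number higher depended on the library left out, as did the share of all genes that were higher. Of 8 chemokine-related genes whose symbols fall outside the rule, 7 were tested and 0 had an unadjusted p under 0.05. The platelet chemokine Pf4 was at 20.0 and 13.9 FPKM in Sham and 13.9 and 7.18 in MI, and Mif, a cytokine that binds Cxcr4, at 37.4 and 34.1 in Sham and 55.2 and 44.0 in MI.

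Of the 8 members under the filter, Cxcl3, Cxcl15 and Cxcl17 were above the floor, each in 1 library, and the other 5 were above it in none. Cxcl15, a chemokine of lung epithelium, had 232 counts in MI replicate 1, the library with lung markers, and 0 in each other library. Cxcl17, made by mucosal epithelium, had 33 and 7 counts in MI and 0 in Sham. Xcl1, Ccr4, Ccr6, Cxcr1 and Ccl26 had 3 to 7 counts in MI replicate 1 and 0 elsewhere, under the floor. None of the 8 had a count in Sham replicate 2.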

How the data were processed

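Poly(A) libraries of mouse heart, 2 Sham and 2 MI, were analysed. Groups and replicate numbers came from the sample titles. The deposited table holds, per gene, whole-number estimated counts and FPKM, the authors' own scaling by length and depth, per the file headers. Per the submitters' processing notes, StringTie 1.3.4d, HISAT2 2.0.4, UMI-tools and cutadapt 1.9 were used, in roles not listed. The build is not given in the sources used here, nor is the strand setting of the counting. Of the 55 members, 49 have the position they have in GENCODE M21 (GRCm38). Low counts were removed by filterByExpr at a minimum of 10 (total 15), leaving 18475 genes. These were scaled by TMM, and edgeR 4.0.16 in R 4.3.3 gave 2-sided quasi-likelihood p-values, with Benjamini-Hochberg adjustment. The FPKM were not scaled by TMM. The TMM factors were 0.877 and 0.975 in Sham and 1.146 and 1.021 in MI, so beside the scaled counts FPKM ran higher in MI. DESeq2 1.42.0 and limma 3.58.1 on log2(FPKM + 1) or log2(FPKM + 0.1), for genes with a mean FPKM of at least 0.1, were alternatives. The steps were tested on simulated data. With 2 libraries a group an exact permutation test cannot give p under 0.333. Named were members with a mean of at least 1 FPKM or an unadjusted p under 0.05, with every other member by range or count, and in other lists genes at an unadjusted p under 0.05 and the 2 most abundant; others were chosen after their values were seen. Members and lists were chosen with earlier results of these data known. Floors cover counting error only. Promoters were matched by symbol to RefSeq on GRCm38.p6, for 41 members. Of the members, 1 is counted in the totals and is otherwise not reported here.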

Additional observations from a re-analysis of the deposited data

How the results depend on the processing

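The 14 members at an unadjusted p under 0.05 kept their sign in every one of the 14 alternatives that tested them (12 for Cxcl13), and 8 of them (Ccl2, Cxcl1, Cxcl2, Ccl21a, Ccl21b, Cx3cl1, Cxcr4 and Ackr4) kept an unadjusted p under 0.05 in every alternative. DESeq2 called 635 genes over the table and 11 members, where edgeR called 0 of each. Leaving out each library in turn gave 0 to 14 genes called, 810 to 3126 genes at an unadjusted p under 0.05, 0 members called, 4 to 11 members higher, 4 to 16 lower, and a member median of -0.70 to 0.0020. The member median was 0.085 with no low-count filter, where 55 members entered instead of 47. It was 0.065 and 0.16 in limma with pseudocounts of 1 and 0.1 (45 members), and -0.014 with the replicate block. Its sign thus depends on the setting, and the cause was not tested. The median of all genes moved by 0.18 and 0.22 on the log2 scale in limma, and by 0.14 with library totals after removal of mitochondrial transcripts. Of all genes with an unadjusted p under 0.05, those higher in MI made up 61.2% in edgeR, 86.6% in limma and 82.0% with library totals. Same-numbered libraries share only a number (r = -0.0429 between their deviations across genes). With the replicate block 0 genes were called. At an unadjusted p in that fit, 5 members were higher (10.6%, against 5.42% of all genes) and 8 lower (17%, against 2.99%). Library totals and counts divided by 4 were added after seeing the data. In the MI libraries Cxcl2 and Ccl22, and in all libraries Ccr7, Cxcr3 and Ccl17, lie near the floor, where depth limits the size of a difference.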
